A study of Mus musculus with 14 samples.

Results

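The genes described here encode matrix proteases and their inhibitors: 13 matrix metalloproteinases (MMPs), 4 ADAM and 13 ADAMTS metalloproteinases, the 4 tissue inhibitors of metalloproteinases (TIMPs) and the serine protease gene Htra1. These 35 genes, out of 21883 protein-coding genes on the assembled mouse chromosomes, come from a list of names drawn up with earlier results of these data known. The list leaves out 9 other MMP genes, none of which was marked on any day. It also leaves out 6 other ADAMTS genes, marked in 2, 3 and 2 cases on days 0, 3 and 10. Of 7 other ADAM genes left out, 5, 6 and 6 were marked, against 52.2%, 61.6% and 56.8% of all genes. Shares over the members are therefore not shares of whole families. A gene was given the peaks that overlapped its RefSeq span (GRCm38), extended by 1 kb at either end, by at least 1 bp. It is called marked (H3K4me3) or bound (RUNX2) on a day when both lists of that day had such a peak, gained when neither list of an earlier day and both lists of a later day had one, and lost in the opposite case.

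Chromatin immunoprecipitation with sequencing had been applied to ATDC5, a teratocarcinoma-derived mouse line that can be driven towards cartilage. Chromatin was taken on day 0, and on days 3 and 10 after dense droplets of cells had been given β-glycerophosphate and an ascorbate phosphate. The antibodies were directed at H3K4me3, the histone modification of active or poised promoters, and at RUNX2, a transcription factor of bone and of maturing cartilage. Each antibody and day had 2 libraries, so 12 of the 14 libraries have a peak list, and the 2 input libraries were not analysed here. All groups are the same line without a named genetic change, and the labels leave it unsaid whether libraries of the same day were grown as separate cultures.

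MMPs and ADAMTS proteases cut the collagens and proteoglycans of the extracellular matrix, and ADAM proteases mostly release proteins from the cell surface. Most are made as inactive precursors, and TIMPs block the active enzymes. In cartilage the ADAMTS proteases that cut the proteoglycan aggrecan, the aggrecanases, remove matrix in growth and in joint disease, and RUNX2 is known for acting on genes of the maturing growth plate chondrocyte.

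The peak lists differed in ways that touch every count below. The H3K4me3 lists held 13765 to 29022 peaks, and the shortest were replicate 1 of day 0 (13765 peaks) and replicate 1 of day 10 (15219 peaks). Fold enrichment, the caller's ratio of signal to local background, is the authors' value and depends on that background: its floor was 3.59 and 3.15 fragments in those lists and 0.603 to 1.14 in the other 4. The RUNX2 lists held 97 to 108 peaks on days 0 and 10 and 19319 and 16859 on day 3. Of 9 chondrocyte marker genes, 4 were marked on day 0 and 8 on days 3 and 10, against 52.2%, 61.6% and 56.8% of all genes. Comp and Hapln1 lacked a peak only in replicate 1 of day 0, the shortest list. Aggrecan (Acan), the main cartilage proteoglycan, had no H3K4me3 peak on day 0 and one in all 4 later lists, and the same held for Matn3. No skeletal muscle marker (0 of 3) and no endothelial marker (0 of 3) was marked on any day, whereas the blood cell markers Ptprc, Cd68 and Spi1 were all marked on day 3. Ptprc and Cd68 gained H3K4me3 from day 0 to day 3, as Acan and Matn3 did, so such gains were not confined to cartilage genes. Of 3 markers each, neuron markers were marked in 1, 2 and 1 cases on days 0, 3 and 10, adipocyte markers in 1, 2 and 2, and epithelial markers in 0, 1 and 1. Of 7 hypertrophy and osteoblast markers, 3, 5 and 6 were marked on these days. Among them Ihh and Spp1 gained H3K4me3 from day 0 to day 3, and Ibsp gained it from day 3 to day 10.

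The RUNX2 lists of day 3 were not separate measurements. The fold enrichment and p-value of a peak give back the whole number of fragments stacked at its summit, and the lists shared 9006 summits to the base, each with the same number of fragments. Only 54 of these had the same local background. In the other 65 pairs of lists at most 2 shared summits had equal fragment numbers. At the protease genes 29 of 30 bound members had the same fragment number in both lists, with summits within 20 bp of each other. RUNX2 on day 3 is therefore counted as 1 library with 2 peak calls, and a member bound on day 3 has no replicate behind it.

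**Figure D1:**
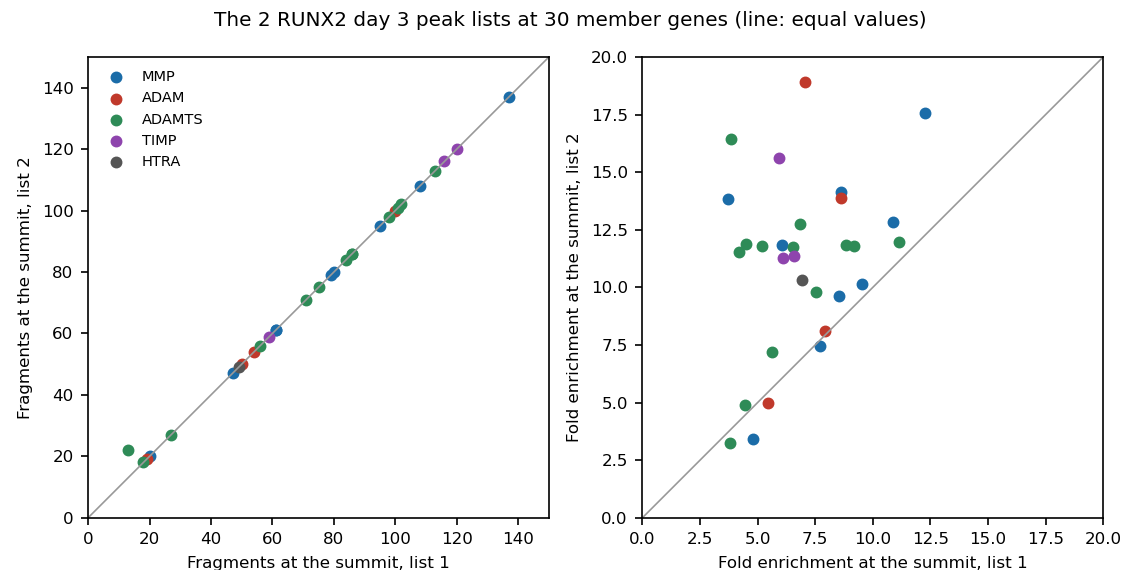
Each point is a protease gene with a RUNX2 peak on day 3, coloured by class. On the left, fragments at the summit of its strongest peak lie on the line of equal values for 29 of 30 genes, and on the right the fold enrichment (linear ratio) of the same peaks is higher in list 2 for 26 of 30.

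Most of the protease genes carried H3K4me3 throughout. On day 0, 26 of 35 members were marked against 52.2% of all protein-coding genes, on day 3 30 against 61.6%, and on day 10 25 against 56.8%. A peak was present in all 6 H3K4me3 lists at 25 members (51.9% of all genes) and in none at 5 members (32.3% of all genes). Where present, the peaks of the members ranked lower than those of all genes in each list. By −log10 q the strongest peak of a member had median percentiles of 51.2 to 69.3 in the 6 lists, against 62.2 to 77.1 for all genes with a peak. The members have longer spans than other genes, with a median of 26949 bp against 17170 bp. With only the gene ends and 1 kb around them counted, the same numbers of members were marked, against 47.4%, 55.2% and 51.7% of all genes. Within 1 kb of an annotated start, which is known for 23 members, 16, 17 and 16 were marked (50.5%, 57.5% and 54.4% of 17491 genes with a start), and 16 had a peak there in all 6 lists (50.4%).

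The classes are given by their counts, with no test between them. Of all genes 52.2%, 61.6% and 56.8% were marked on days 0, 3 and 10. Of the 13 MMP genes 8, 9 and 8 were marked on days 0, 3 and 10, and 4 had no peak in any list, against 32.3% of all genes. Of the 13 ADAMTS genes 11, 13 and 10 were marked. A peak was present in all 6 H3K4me3 lists at 10 of them (51.9% of all genes) and in none at 0 (32.3% of all genes). The 4 ADAM genes were marked in 3, 4 and 3 cases, the 4 TIMP genes in 3 on each day, and Htra1 on every day. Replicate 2 of day 0, both day 3 lists and replicate 2 of day 10 each had a peak at the same 30 members, as did both day 3 RUNX2 lists. The lower counts of days 0 and 10 were those of the shortest lists, where 26 and 25 members had a peak. Mmp19, Adam8, Adamts4 and Adamts8 had no peak in exactly those lists (2.37% of all genes had this pattern), and Adamts15 lacked one only in replicate 1 of day 10 (0.21% of all genes).

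**Figure D2:**
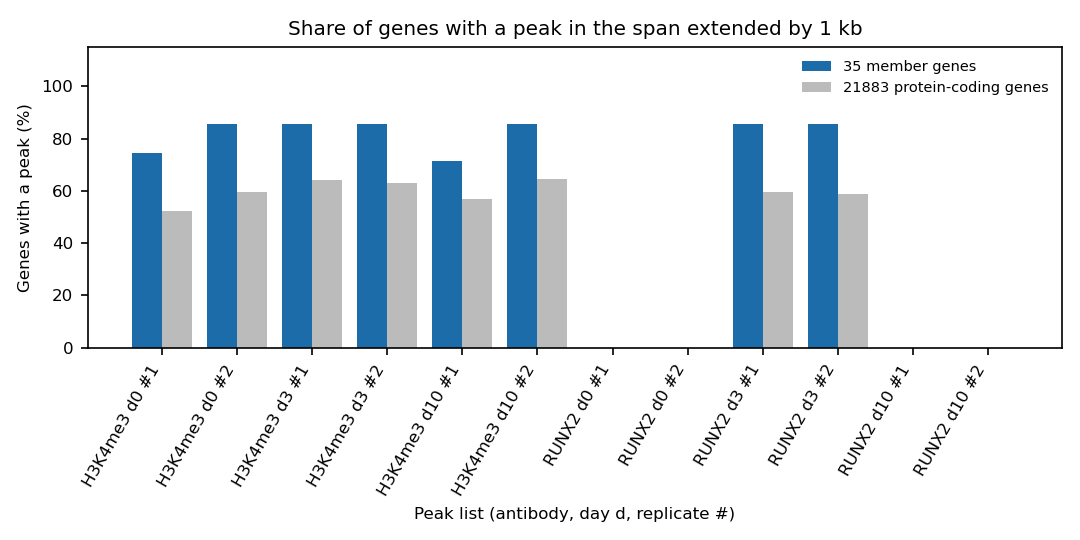
Bars give the percent of genes with a peak in each of the 12 lists, for the 35 protease genes (blue) and all 21883 protein-coding genes (grey). The H3K4me3 lists reach 25 to 30 members, both day 3 RUNX2 lists 30, and the RUNX2 lists of days 0 and 10 none.

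**Figure D3:**
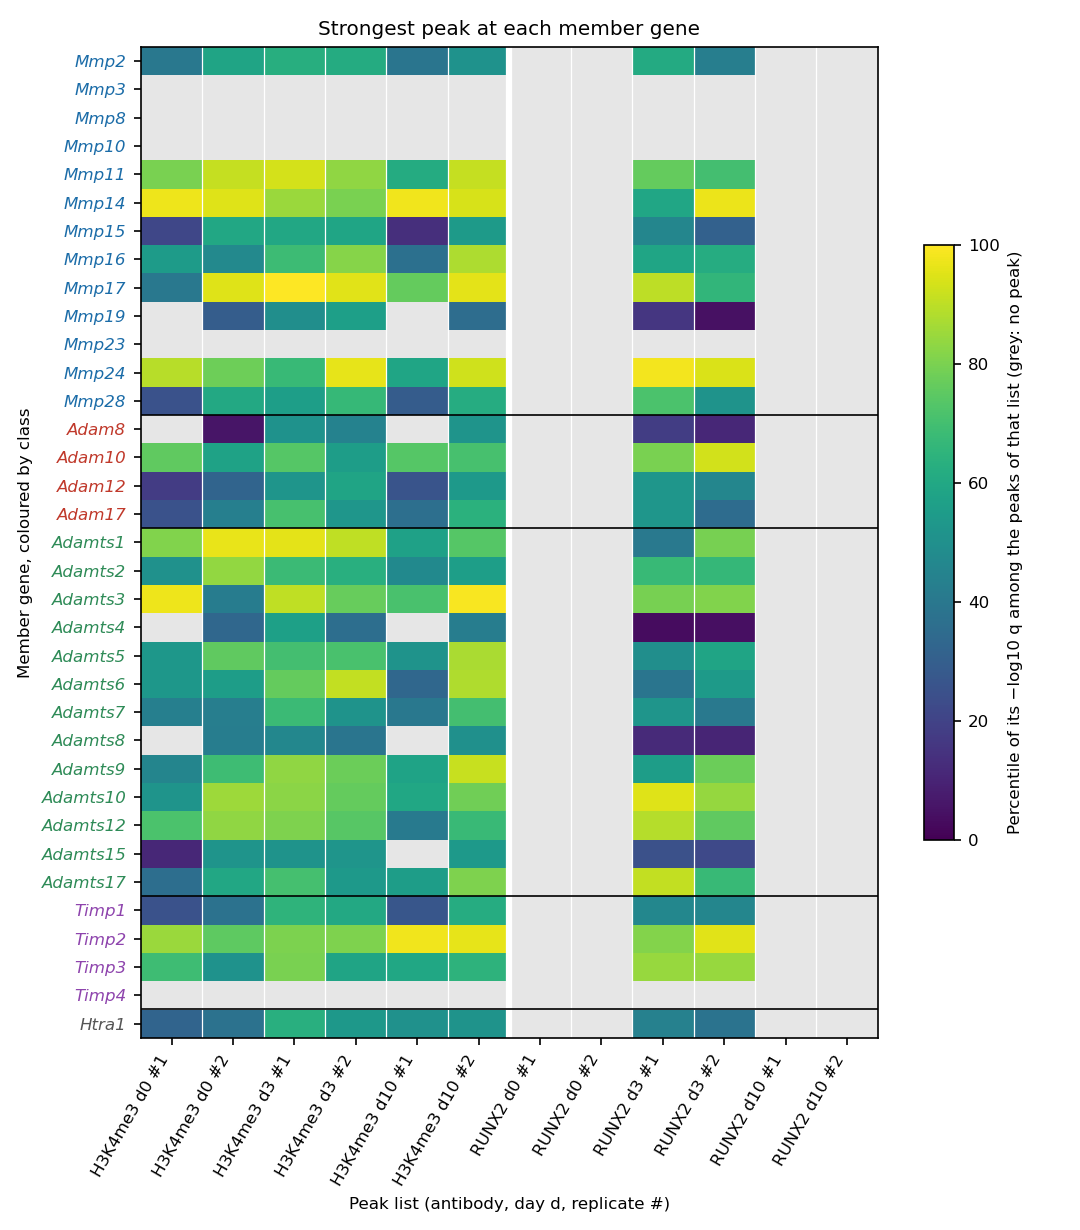
Rows are the protease genes in class order and columns the 12 peak lists. Colour gives the percentile of the gene's strongest peak, by −log10 q, among all peaks of that list, and grey marks no peak. Rows that are grey throughout are Mmp3, Mmp8, Mmp10, Mmp23 and Timp4.

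No member gained or lost H3K4me3 between any pair of days. Among all genes 3.2% gained it from day 0 to day 3, 0.0503% from day 3 to day 10 and 1.15% from day 0 to day 10, while 0.00914%, 0.58% and 0.00457% lost it. With 2 libraries a day an exact permutation test cannot give a two-sided p below 0.333, so none was run. This rested on replicate 2 of day 0 and of day 10. Without the former, Mmp19, Adam8, Adamts4 and Adamts8 would count as gained on day 3. Without replicate 2 of day 10 the same 4 genes and Adamts15 would count as lost after day 3.

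The membrane-type MMPs, which are anchored in the cell surface and several of which activate other MMPs, were all marked. The 5 (Mmp14, Mmp15, Mmp16, Mmp17 and Mmp24) had H3K4me3 in all 6 lists (51.9% of all genes) and a RUNX2 peak on day 3 (58.4%). Mmp24 reached 6 lists only through a peak at its far end, where BC029722 starts. At its own start Mmp24 had a peak in 4 lists. The bases before the start of Mmp14 (chr14:54431348-54431597, plus strand, GRCm38.p6) are shown first because its mark was the broadest of the class. Those of Mmp3 (chr9:7445572-7445821) and Mmp10 (chr9:7502092-7502341), both on the plus strand, are shown beside it because neither had a peak in any list. Sequences are the 250 bases up to the RefSeq start site, and capitals mark a runt motif (TGTGGT or its reverse complement ACCACA), an AP-1 motif (TGAGTCA) or a TATA motif (TATAAA).
Mmp14: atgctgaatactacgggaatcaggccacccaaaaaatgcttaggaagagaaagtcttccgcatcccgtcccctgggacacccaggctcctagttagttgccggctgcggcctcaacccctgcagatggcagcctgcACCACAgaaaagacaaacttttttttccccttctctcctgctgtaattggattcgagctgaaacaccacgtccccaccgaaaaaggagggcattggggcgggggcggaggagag
Mmp3: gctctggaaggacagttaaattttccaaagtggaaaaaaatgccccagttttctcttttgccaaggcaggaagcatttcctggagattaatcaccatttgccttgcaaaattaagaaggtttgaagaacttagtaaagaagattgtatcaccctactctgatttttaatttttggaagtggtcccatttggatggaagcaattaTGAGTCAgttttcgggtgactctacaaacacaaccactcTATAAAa
Mmp10: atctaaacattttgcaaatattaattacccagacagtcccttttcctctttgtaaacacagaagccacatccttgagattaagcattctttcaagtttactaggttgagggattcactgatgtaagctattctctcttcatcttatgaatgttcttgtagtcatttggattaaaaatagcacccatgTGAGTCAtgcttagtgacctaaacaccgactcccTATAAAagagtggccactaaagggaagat
The Mmp14 sequence holds 10 CpG, and the other two hold 1 each. Mmp14 has 1 ACCACA that begins 114 bases before the start. Mmp3 has an AP-1 motif that begins 46 bases and a TATA motif 7 bases before its start, and Mmp10 has them 63 and 29 bases before.

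Mmp14 encodes MT1-MMP, a collagenase of the cell surface that also activates pro-MMP2. Its strongest H3K4me3 peak stacked 62 and 41 fragments on day 0, 68 and 55 on day 3, then 122 and 91 on day 10 (replicates 1 and 2). Fragment numbers grow with the depth of a library, so they are read within a list: there the peak ranked between percentiles 79.8 and 97.7 by −log10 q. Its widest H3K4me3 peak was 3027 to 5281 bp long, wider than 98.5% or more of the peaks in each list. RUNX2 on day 3 reached 137 fragments there, the most of any member, over a background of 36.1 fragments in list 1 and 8.97 in list 2. Fold enrichment was accordingly 3.72 in list 1 and 13.8 in list 2.

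Mmp17, which encodes a membrane-type MMP held by a lipid anchor, had the highest mean H3K4me3 fold enrichment of the MMP class on day 3. That mean of 24.2 hides a gap between its libraries: replicate 1 gave 38.6 and replicate 2 gave 9.82. The fragments behind them were 102 and 71 on day 3, 33 and 43 on day 0, then 77 and 90 on day 10. In replicate 1 of day 3 the local background was 1.67 fragments and in replicate 2 it was 6.33, so the fold enrichments are further apart than the fragment numbers.

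Mmp24, best known from neural tissue, had the highest RUNX2 fold enrichment of the class on day 3 (12.3 in list 1 and 17.6 in list 2, with 108 fragments in both). That peak does not lie at the start of Mmp24. It lies at the other end of the gene, where BC029722 starts and Eif6 ends. At the start of Mmp24 RUNX2 stacked 23 fragments, and H3K4me3 stacked 19 fragments in replicate 2 of day 0, 27 and 16 on day 3 and 33 in replicate 2 of day 10. Replicate 1 of day 0 and of day 10 had no peak at this start, so by its own start Mmp24 joins the genes that the shortest lists miss.

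Mmp15 and Mmp16 had lower and more ordinary peaks. Mmp15 stacked 20 H3K4me3 fragments in both day 0 libraries, 39 and 30 on day 3, then 30 and 33 on day 10, with 47 RUNX2 fragments. Mmp16 stacked 31 and 19, 44 and 41, and 43 and 61 in the same order, with 79 RUNX2 fragments.

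Among the secreted MMPs, Mmp2, Mmp11 and Mmp28 had H3K4me3 in all 6 lists and RUNX2 on day 3. Mmp2, which encodes gelatinase A, was marked at its low-coordinate end and again inside the gene, at 73.8% of its span on day 3. The stronger H3K4me3 peak was the one inside the gene in both day 0 lists and in replicate 2 of day 10, and the one at the end in the other 3. It stacked 26 and 25 fragments on day 0, 37 and 32 on day 3, then 44 and 33 on day 10. RUNX2 was called at both places, with 61 fragments at the end. Mmp11, which encodes stromelysin 3, had its strongest H3K4me3 peak in 5 of the 6 lists at the far end, which it shares with the start of Smarcb1. The peak at its own start, shared with the start of Chchd10, stacked 33 and 29 H3K4me3 fragments on day 0, 40 and 42 on day 3, 55 and 64 on day 10, and 80 RUNX2 fragments. Mmp28, which encodes epilysin, had peaks at its start and at its other end, which lies at the end of 1700020L24Rik. Both ends of Mmp11 are shared with other genes, so its peaks cannot be given to it alone, and the same holds for the far-end peaks of Mmp24 and Mmp28.

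Mmp19 was the weakest marked MMP. Its peak at the low-coordinate end stacked 12 H3K4me3 fragments in replicate 2 of day 0, 24 and 28 on day 3 and 18 in replicate 2 of day 10, and 20 RUNX2 fragments. Its RUNX2 call was lost when peaks needed a −log10 q of 5 or more.

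The unmarked MMP genes were Mmp3 and Mmp10 (stromelysins), Mmp8 (neutrophil collagenase) and Mmp23. None had an H3K4me3 or RUNX2 peak in any of the 12 lists, nor did the window of 5 kb around the gene add one. Mmp3, Mmp8 and Mmp10 lie in the MMP cluster of chromosome 9, at 7445822-7455975, 7558429-7568486 and 7502342-7510242. The same held beyond the 35 genes. Of 9 other MMP genes none was marked on any day, and 8 had no H3K4me3 peak in any list (32.3% of all genes). These 8 include Mmp13 and Mmp9, the collagenase and gelatinase of the hypertrophic growth plate. Mmp25 had a peak in replicate 1 of day 3 alone.

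Starts without H3K4me3 held few CpG. For the 23 members with a start in the RefSeq promoter table, the 17 whose start was marked on day 3 had a median of 18 CpG in the 250 bases before the start (6 to 35). The 6 without a peak at the start in any list (Mmp3, Mmp8, Mmp10, Mmp23, Timp4 and Adam8) had a median of 3 (1 to 18). Marked and unmarked starts of all genes had medians of 17 and 2. Mmp23 stood apart among the unmarked, with 18 CpG before its first start and 13 before its second.

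**Figure D4:**
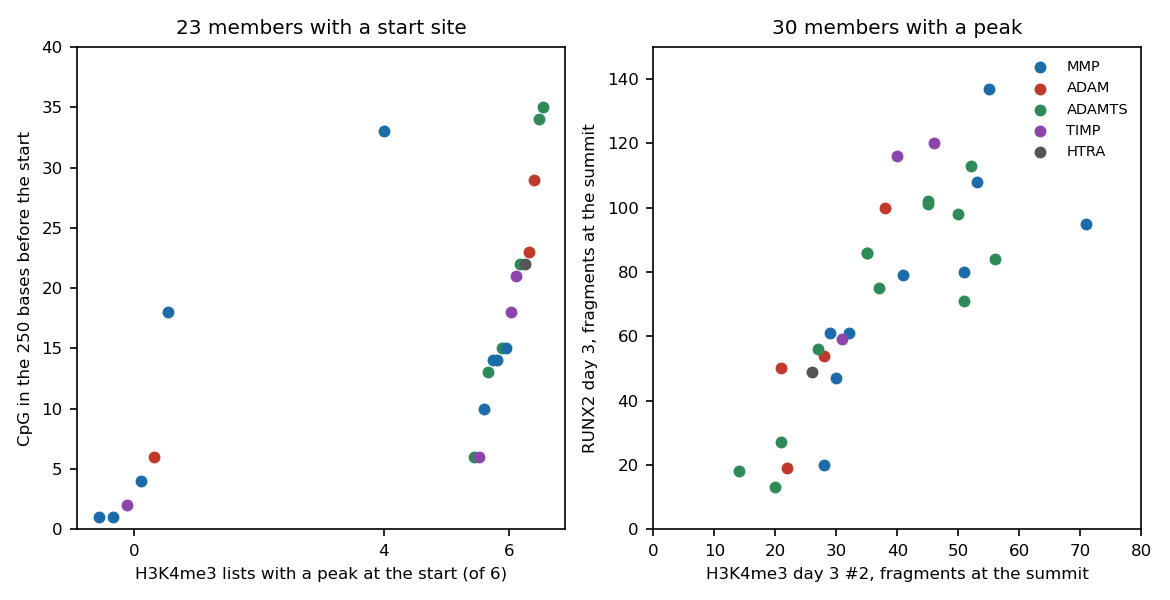
Left, CpG dinucleotides in the 250 bases before the start of 23 protease genes, by the number of H3K4me3 lists (of 6) with a peak within 1 kb of it; points are spread sideways within a group. The genes with 0 lists hold 1 to 18 CpG and the gene with 4 lists is Mmp24. Right, fragments at the summit of the strongest peak of 30 genes in replicate 2 of day 3 for H3K4me3 and in RUNX2 on day 3, which rise together.

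The 6 aggrecanase genes (Adamts1, Adamts4, Adamts5, Adamts8, Adamts9 and Adamts15) divided into broadly and narrowly marked ones. Adamts1, Adamts5 and Adamts9 had H3K4me3 in all 6 lists, with median width percentiles of 98.8, 97.0 and 98.4 among the peaks of their lists. All genes with H3K4me3 in all 6 lists had a median of 77.1. By −log10 q their median percentiles were 85.8, 70.8 and 73.3, against medians of 62.2 to 77.1 in the 6 lists for all genes with a peak. By that measure Adamts5 and Adamts9 were ordinary. Adamts4, Adamts8 and Adamts15 had H3K4me3 in 4, 4 and 5 lists, with median width percentiles of 42.2, 55.4 and 55.8, and 39.2, 44.4 and 51.9 by −log10 q. The count of marked aggrecanases was 4, 6 and 3 on days 0, 3 and 10, against 52.2%, 61.6% and 56.8% of all genes. The aggrecanases not counted on days 0 and 10 lacked a peak in replicate 1, the shortest list of the day. All 6 had a peak in replicate 2 of both days, though that of Adamts4 on day 0 lay only at its high-coordinate end. Whether list length or the day lies behind the lower counts was not tested.

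Adamts1 (chromosome 16, 85793827-85803113) encodes an inflammation-induced protease that cuts aggrecan and versican. The 250 bases before its start (chr16:85803114-85803363, minus strand) are shown for their TATA motif, in capitals. Of the 23 members with an annotated start, only Adamts1 has both a marked start and this motif.
Adamts1: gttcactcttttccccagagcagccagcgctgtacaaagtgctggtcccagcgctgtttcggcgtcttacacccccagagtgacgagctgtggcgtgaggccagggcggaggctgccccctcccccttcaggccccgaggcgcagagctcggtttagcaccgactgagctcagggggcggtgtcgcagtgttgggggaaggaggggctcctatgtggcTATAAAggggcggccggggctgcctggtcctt
That motif begins 32 bases before the start, and the sequence holds 15 CpG. H3K4me3 stacked 37 and 32 fragments on day 0, 70 and 56 on day 3, then 61 and 58 on day 10. The widest peak was 2920 to 4389 bp long over the 6 lists. RUNX2 stacked 84 fragments, over a background of 21.2 in list 1 and 4.17 in list 2. Adamts1 had the highest mean H3K4me3 fold enrichment of the ADAMTS class on day 3, 22.2, from 33.7 and 10.7.

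Adamts5, which encodes the main aggrecanase of mouse joint cartilage, carried its peaks at the high-coordinate end (chromosome 16, 85858157-85901125), where the annotated gene Gm46558 also starts. They stacked 29 and 25 H3K4me3 fragments on day 0, 48 and 37 on day 3, then 58 and 61 on day 10. RUNX2 stacked 75 fragments. Adamts9, which encodes a versican and aggrecan protease, stacked 29 in both day 0 libraries, 63 and 45 on day 3, then 79 and 74 on day 10, with 101 RUNX2 fragments. The day 0 summits lay 2037 bp apart. In every list but replicate 1 of day 0 this H3K4me3 peak also lay within 1 kb of the start of 9530026P05Rik, so it cannot be given to Adamts9 alone. The RUNX2 regions of Adamts9 lay inside the gene near the start, and with only the 1 kb around the gene ends counted Adamts9 would not be bound. The RUNX2 region at 92940583-92941297 also lay within 1 kb of the 9530026P05Rik start.

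Adamts4 (chromosome 1, 171250129-171262267) encodes the other main aggrecanase, which is induced by inflammatory signals. Its peaks lay at both ends of the gene. At its low-coordinate end no day 0 list had an H3K4me3 peak, both day 3 lists had one (fold enrichment 14.3 and 4.38), and of the day 10 lists only replicate 2 did (5.23). Just past its high-coordinate end, replicate 2 of day 0, both day 3 lists and replicate 2 of day 10 had a peak (5.98, 10.5, 4.76 and 3.88). Without the extension of 1 kb Adamts4 would be the only member to gain the mark from day 0 to day 3. The RUNX2 lists put their day 3 peak at opposite ends, list 1 at the high end with 13 fragments and list 2 at the low end with 22. Adamts4 is thus the only bound member without a place called in both RUNX2 lists. The call is lost with no extension, with a −log10 q of at least 5, or with equal numbers of top peaks.

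Adamts8 and Adamts15 lie next to each other on chromosome 9 (30942562-30963838 and 30899155-30922452), with their marked ends facing each other. Adamts8 stacked 14 H3K4me3 fragments in replicate 2 of day 0, 21 and 14 on day 3 and 25 in replicate 2 of day 10, with 18 RUNX2 fragments, a call that is lost with equal numbers of top peaks. Adamts15 stacked 19 and 15 on day 0, 23 and 21 on day 3 and 27 in replicate 2 of day 10, with 27 RUNX2 fragments. In the lists that have a peak, neither gene ranked above percentile 54.1 by −log10 q.

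**Figure D5:**
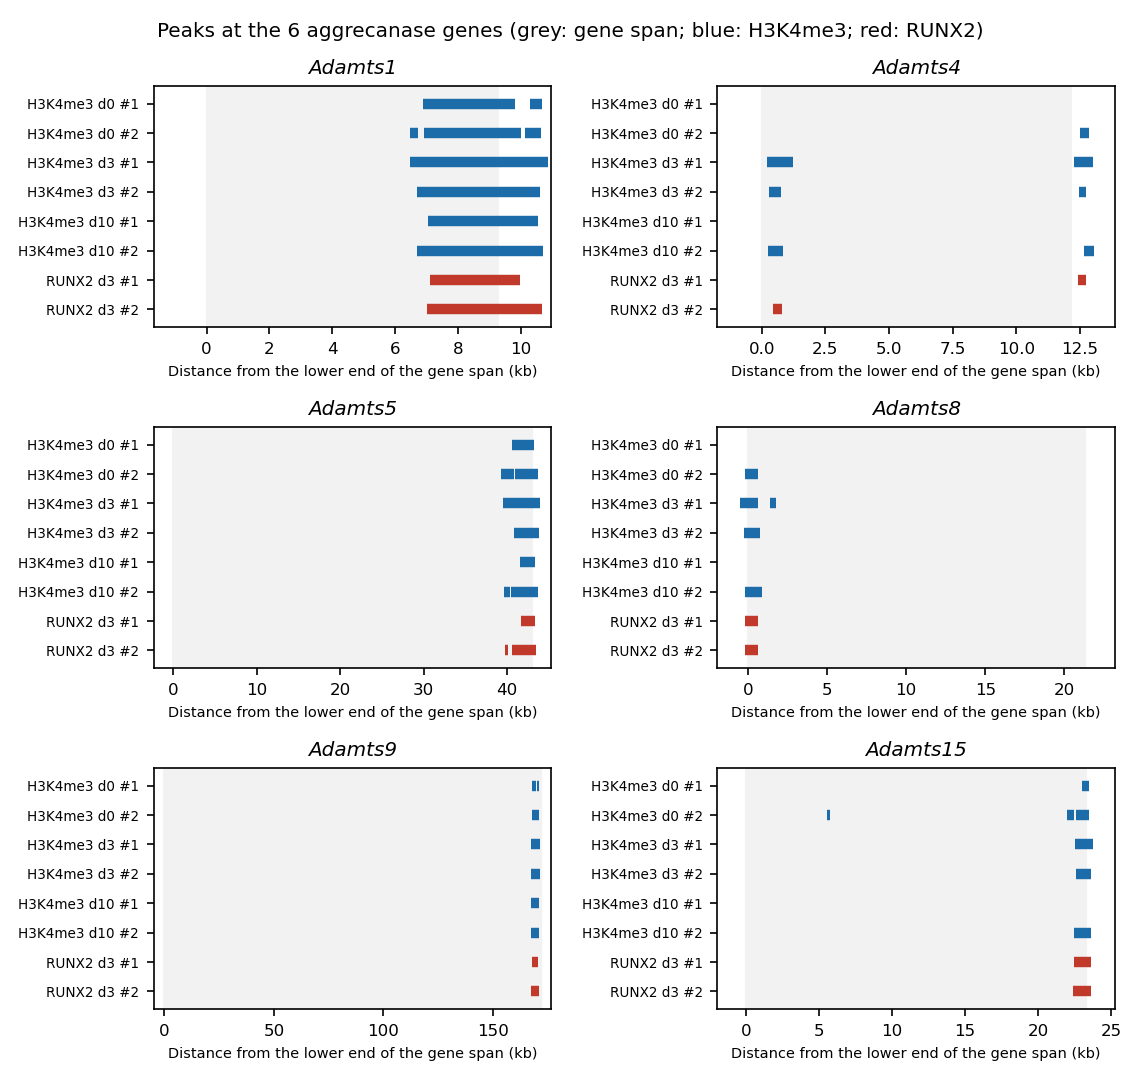
Horizontal bars are peaks at the 6 aggrecanase genes, by distance in kb from the low-coordinate end of the gene span (grey), for 6 H3K4me3 lists (blue) and the 2 RUNX2 lists of day 3 (red). The strongest peaks of 5 genes sit at the same end in every list that has them, and those of Adamts4 lie at both ends, in RUNX2 at opposite ends.

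The procollagen proteases Adamts2 and Adamts3, which remove the amino-terminal propeptide of fibrillar collagens, had H3K4me3 in all 6 lists and RUNX2 on day 3. Adamts3 stacked 52 and 21 H3K4me3 fragments on day 0, 66 and 45 on day 3, then 74 and 83 on day 10, with 102 RUNX2 fragments. On day 0 it ranked at percentile 97.3 in replicate 1 and at percentile 41.9 in replicate 2, so its rank on that day differed between the libraries. Adamts2 stacked 28 and 27, 42 and 35, and 57 and 39 in the same order, with 86 RUNX2 fragments. The bases before the Adamts2 start (chr11:50601835-50602084, plus strand) are shown because they hold the runt-like motif TGCGGT or its reverse complement ACCGCA at 2 places, 198 and 34 bases before the start.
Adamts2: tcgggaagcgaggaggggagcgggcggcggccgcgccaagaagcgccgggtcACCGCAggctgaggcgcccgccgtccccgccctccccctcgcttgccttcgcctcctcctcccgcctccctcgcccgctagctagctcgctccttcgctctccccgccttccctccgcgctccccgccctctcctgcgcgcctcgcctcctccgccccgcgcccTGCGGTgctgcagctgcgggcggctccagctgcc

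Adamts7 and Adamts12, which cut cartilage oligomeric matrix protein, also had H3K4me3 in all 6 lists and RUNX2 on day 3, with 56 and 98 RUNX2 fragments. Adamts6, Adamts10 and Adamts17, known from fibrillin and connective tissue biology, were alike in this, with 71, 113 and 86. Adamts17 had the highest mean RUNX2 fold enrichment of the ADAMTS class, from 11.1 in list 1 and 12 in list 2. It stacked 26 and 22 H3K4me3 fragments on day 0, 46 and 35 on day 3, then 60 and 59 on day 10. In every list that has it, this start peak also lay within 1 kb of the start of Gm33627. The peak therefore cannot be given to Adamts17 alone. Beyond the members, 2, 3 and 2 of 6 other ADAMTS genes and 2, 5 and 4 of 5 ADAMTS-like genes were marked on days 0, 3 and 10. Of all genes 52.2%, 61.6% and 56.8% were. The ADAMTS-like gene Adamtsl2, whose product binds matrix microfibrils without protease activity, gained H3K4me3 from day 0 to day 3 (3.2% of all genes). It had no RUNX2 peak.

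Of the ADAM genes, Adam10 and Adam17 encode the main cell surface sheddases, for Notch and for tumour necrosis factor. Adam10 stacked 38 and 23 H3K4me3 fragments on day 0, 50 and 38 on day 3, then 75 and 52 on day 10. With 100 RUNX2 fragments it had the highest mean RUNX2 fold enrichment of its class (7.07 in list 1 and 18.9 in list 2). Adam17 stacked 21 and 19, 45 and 28, and 41 and 46 H3K4me3 fragments in the same order, with 54 RUNX2 fragments. Its day 3 H3K4me3 fold enrichments of 21.9 and 7.66 made it the highest of the class on average. Adam12, which encodes a protease of muscle and bone precursor cells, stacked 19 and 11, 23 and 21, and 31 and 25, with 50 RUNX2 fragments.

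Adam8, known from inflammatory cells and osteoclasts, counted as marked only through a peak that is not at its start. All its peaks lay at its low-coordinate end, which is its 3′ end, over the start of Spef1l, and no list had a peak within 1 kb of the Adam8 start. There they stacked 9 H3K4me3 fragments in replicate 2 of day 0, 22 in both day 3 libraries and 31 in replicate 2 of day 10, with 19 RUNX2 fragments. With a −log10 q of at least 5 the day 0 peak falls out and Adam8 would count as gained. Of 7 other ADAM genes 5, 6 and 6 were marked on days 0, 3 and 10, against 52.2%, 61.6% and 56.8% of all genes. Adam22, which encodes a neuronal receptor without protease activity, gained the mark from day 0 to day 3 (3.2% of all genes). It also had the mark in both day 10 lists.

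Of the inhibitors, Timp1, Timp2 and Timp3 had H3K4me3 in all 6 lists and RUNX2 on day 3, and Timp4 had no peak in any list. The bases before the start of Timp2 (chr11:118355412-118355661, minus strand), the strongest of them, and of Timp4 (chr6:115252206-115252455, minus strand), the unmarked one, show the difference in CpG, with 21 and 2. Neither holds any of the 4 motifs searched, so no base is in capitals.
Timp2: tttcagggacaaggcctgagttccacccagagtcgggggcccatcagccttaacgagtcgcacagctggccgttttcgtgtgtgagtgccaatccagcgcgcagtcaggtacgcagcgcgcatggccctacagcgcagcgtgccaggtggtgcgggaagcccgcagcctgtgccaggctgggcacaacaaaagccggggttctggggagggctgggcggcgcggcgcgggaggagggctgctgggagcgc
Timp4: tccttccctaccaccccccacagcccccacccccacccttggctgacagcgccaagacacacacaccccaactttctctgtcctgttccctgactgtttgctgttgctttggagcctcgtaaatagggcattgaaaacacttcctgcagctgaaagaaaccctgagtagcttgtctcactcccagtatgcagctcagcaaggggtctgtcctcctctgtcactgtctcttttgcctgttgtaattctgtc
Timp2, which encodes an inhibitor that also helps MT1-MMP to activate pro-MMP2, stacked 42 and 30 H3K4me3 fragments on day 0, 56 and 46 on day 3, then 108 and 83 on day 10. It ranked between percentiles 75.2 and 97.9 in its lists. RUNX2 stacked 120 fragments, the most after Mmp14. On day 3 it also had 2 small H3K4me3 regions near the middle of the gene, at 48.3% and 49.7% of its span.

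Timp3, whose product binds the matrix and inhibits ADAMTS proteases and ADAM17 as well, stacked 38 and 27 H3K4me3 fragments on day 0, 58 and 40 on day 3, then 67 and 60 on day 10, with 116 RUNX2 fragments. Timp1 stacked 21 and 17, 39 and 31, and 32 and 43 in the same order, with 59 RUNX2 fragments, and ranked at percentile 64.9 or below in every list. Timp1, Timp3 and Timp4 lie inside the synapsin genes Syn1, Syn3 and Syn2. The peaks of Timp1 and Timp3 lay over their own start sites.

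Htra1, a secreted serine protease of cartilage matrix, stacked 23 and 17 H3K4me3 fragments on day 0, 38 and 26 on day 3, then 56 and 32 on day 10, with 49 RUNX2 fragments. On the same days 52.2%, 61.6% and 56.8% of all genes were marked. Of 14 genes that activate or restrain these proteases, 11, 13 and 12 were. They include Furin, which cuts the propeptides of membrane-type MMPs, ADAMs and ADAMTS proteases, and Reck, which restrains MMPs at the cell surface. Both had H3K4me3 in all 6 lists (51.9% of all genes). None of the 14 gained or lost it. Between any pair of days at most 3.2% of all genes gained the mark and at most 0.58% lost it.

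RUNX2 peaks followed the H3K4me3 calls on day 3. A peak in both lists was present at 30 of 35 members (58.4% of all genes): 30 of the 30 members marked on day 3 (94.2% of all marked genes) and 0 of the 5 others (0.254% of all genes without the mark). Around the gene ends alone 29 members were bound (52.9% of all genes), and around the starts 17 of 23 (55.6%). By class the 30 were 9 MMP, 4 ADAM, 13 ADAMTS and 3 TIMP genes and Htra1. Their strongest RUNX2 peaks had median percentiles by −log10 q of 57.1 in list 1 and 60.1 in list 2, against 68.6 and 65.9 for all genes with a peak. On days 0 and 10 no member had a RUNX2 peak (0.0274% and 0.0183% of all genes), in lists of 97 to 108 peaks for the whole genome. All 30 therefore met the definition of gained from day 0 to day 3 (58.4% of all genes) and lost from day 3 to day 10 (58.4% of all genes). The change of the members was that of the lists as a whole.

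Within the genes the RUNX2 and H3K4me3 peaks covered the same places. There were 38 regions covered in both RUNX2 lists, in 29 members, and 38 of 38 overlapped a region covered in both H3K4me3 lists of day 3, against 97.6% of 17401 such regions in the genome. A region of this kind was present at 29 members (57.9% of all genes), and a RUNX2 region outside H3K4me3 at none (1.0% of all genes). Of the 38, 34 touched the 1 kb around a gene end and 4 lay inside, in Mmp2, Mmp14 and Adamts9. The Adamts9 span runs to 92944450, past its annotated start at 92943534. Its inside region that ends at 92943439 therefore lies within 1 kb of that start and counts as a bound start. At the 17 members with a bound start, the RUNX2 summit lay downstream of the start in 17 of 17, by a median of 346 bp in list 1 (82 to 1564 bp). Among all genes 84.1% of such summits lay downstream in that list, by a median of 269.5 bp.

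RUNX2 and H3K4me3 peaks also rose and fell together in size from gene to gene. Over 25 to 30 members, the RUNX2 fragments of day 3 and the H3K4me3 fragments had a Spearman correlation of 0.81 to 0.87 in the 6 lists, and over 11431 to 12946 genes one of 0.73 to 0.88. These are correlations across genes, which share each library and its chromatin, and are not replicates. Members with few RUNX2 fragments (Adamts4, Adamts8, Adam8, Mmp19 and Adamts15, with 13 to 27 in list 1) were the same 5 genes that lacked H3K4me3 in at least one of the shortest lists. The other 25 bound members stacked 47 to 137. Mmp24 is among the 25 through its far-end peak at the BC029722 start, with 108 fragments. At its own start Mmp24 stacked 23 RUNX2 fragments and lacked H3K4me3 in both shortest lists.

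The 250 bases before the starts were searched for runt and other motifs. TGTGGT on either strand was present before the start of 2 of 23 members, Mmp14 and Mmp23, against 12.4% of 21262 promoters of this length. TGCGGT was present in 5 of 23 (5.87% of promoters): Adamts2, Mmp8, Mmp11, Mmp15 and Mmp23. The AP-1 motif TGAGTCA was present in 2 of 23 (4.06%), the unmarked Mmp3 and Mmp10, and TATAAA in 3 of 23 (11.6%), those genes and Adamts1. Mmp8 and Mmp23 hold a motif and had no RUNX2 peak, and 13 of the 17 bound starts have neither runt motif in this window. The summits lie mostly downstream of it, in sequence that was not searched.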

How the data were processed

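The submitters' processing notes name HISAT2 2.2.0, MACS2, Trim Galore and FastQC, and the labels give 75 bp for the reads. What settings were used, and what was done with duplicate reads and with the input libraries, is not given in the sources used here. Peaks were called per library. Read by the columns of the narrowPeak format, each deposited list gives a score, a fold enrichment (a linear ratio), and the −log10 of a p-value and a q-value for each peak, all the authors' values. No table of reads per library was used, so depth is unknown.

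Lines that overlapped within a list were joined, and peaks off the assembled chromosomes were left out. The notes name GRCm39, but 38.4% to 70.7% of H3K4me3 summits lay within 1 kb of a RefSeq start of GRCm38.p6, and 3.64% to 4.26% after a shift of 20 kb, so GRCm38 spans were used. Start sites were in the table for 23 of the 35 members. The fragments at a summit and their local background were solved from the deposited fold and p-value, which the caller writes as (fragments + 1) / (background + 1) and a Poisson tail. A whole number fitted the p-value within 0.002 on the −log10 scale for 96.0% or more of the lines in each list, and for 0.568% or fewer after the p-value had been moved. This step and the peak counting were tested on simulated data.

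Genes were compared by calls in both libraries, with no test over the list, and read against all protein-coding genes. All members are named. Values in every library are given for the aggrecanases, the TIMP genes, members without a peak on some day and the highest of each class by mean fold enrichment on day 3. Members and lists were chosen with earlier results of these data known. Other genes of the lists were to be named where they gained or lost a peak. Mmp9, Mmp13, Mmp25, Furin, Reck, Spi1, Comp, Hapln1 and the library values of the other members were chosen after their values were seen. Not every gene that overlaps a member's window is reported here. Of the ADAMTS-like genes, 1 of 6 had no match in the gene table. Python 3.11.15, pandas 2.3.3 and scipy were used.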

Additional observations from a re-analysis of the deposited data

How the results depend on the processing

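Other windows, a −log10 q of at least 5, equal numbers of top peaks and leaving out each library gave 143 alternative values, of which 131 stayed within 1.5 times the count reported. The 131 include values with a RUNX2 list left out, which are no replicate check. They also include many counts of 0 that stayed at 0. A count of 25 to 30 of 35 members cannot grow 1.5 times, and a fall from 30 to 24 stays within that limit. The 131 are therefore a weak check. The day 3 RUNX2 lists were counted as 1 library, and no member had a RUNX2 peak on days 0 and 10. With 1 kb around the start sites of 23 members, an alternative chosen after seeing the data, 16, 17 and 16 members were marked on days 0, 3 and 10. RUNX2 was then bound, gained and lost at 17, and lay over H3K4me3 at 17, because fewer genes were counted. Counts of H3K4me3 gained from day 0 to day 3 rose from 0 to 1 with no extension (Adamts4) and to 1 with the stricter q (Adam8). With single libraries left out, they ranged from 0 to 4. Losses from day 3 to day 10 ranged from 0 to 5 and losses from day 0 to day 10 from 0 to 1 (Adamts15), each highest without replicate 2 of day 10. With replicate 1 of day 0 and of day 10 both left out, also chosen after seeing the data, 30 members were marked on either day. Equal numbers of top peaks gave 25, 24 and 23 marked members and 28 bound. No paired analysis was possible because the results are counts of calls and come from no test. Read depth is unknown, so a peak missing from a short list may have been below its limit of detection.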
